A study of Mus musculus with 6 samples.

Results

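The genes described here are all those encoded by mitochondrial DNA in a liver RNA-seq study of mice that lack peroxiredoxin 1 (Prdx1), a peroxide-reducing enzyme, in hepatocytes. They were taken as every row of the deposited gene table on chromosome MT with a name starting in mt-, which gave 37 of 55401 genes. The 37 rows are 13 mRNAs, 2 ribosomal RNAs (rRNAs) and 22 transfer RNAs (tRNAs). Livers of 3 male Alb-Cre Prdx1fl/fl mice (knockouts below) were compared with livers of 3 male Prdx1fl/fl mice (controls below). Both genotypes carry floxed Prdx1 alleles, and the knockouts also carry Cre recombinase under the albumin promoter, which is active in hepatocytes. The labels do not say whether other liver cells keep the gene. The controls carry no Cre, and an effect of the transgene cannot be told apart from the loss of Prdx1. All 6 mice were 8 weeks old when they started MCD, a diet that the labels give only by this abbreviation (usually methionine- and choline-deficient), and were kept on it for 5 weeks. No group on another diet was compared, so every difference is one between genotypes on MCD.

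Mitochondrial DNA is a small circle that is read on both strands into long RNAs, which are then cut into single mRNAs, rRNAs and tRNAs. Most mRNAs are flanked by tRNAs, and excision of the tRNAs by RNase P and ELAC2 releases the RNAs between them. The mRNAs encode core subunits of respiratory chain complexes I, III and IV and of ATP synthase (complex V). The rRNAs form the core of the mitochondrial ribosome, and the tRNAs decode the mRNAs there. All other mitochondrial proteins come from nuclear genes, and liver, with its high energy demand, is rich in mitochondria. By the usual convention, rows on the plus strand are called heavy strand genes here and rows on the minus strand light strand genes. There were 28 heavy strand genes (12 mRNAs, both rRNAs and 14 tRNAs) and 9 light strand genes (mt-Nd6 and 8 tRNAs).

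Some mitochondrial genes overlap or lie end to end, and the pair in which the largest difference was found is shown first. mt-Atp8 (chrMT:7766-7969, plus strand, GRCm38) and mt-Atp6 (chrMT:7927-8607, plus strand, GRCm38) share 43 bases on one RNA, given in capitals in both sequences. The whole of mt-Atp8 and the first 120 bases of mt-Atp6 are printed, from the GENCODE M21 transcripts.
mt-Atp8: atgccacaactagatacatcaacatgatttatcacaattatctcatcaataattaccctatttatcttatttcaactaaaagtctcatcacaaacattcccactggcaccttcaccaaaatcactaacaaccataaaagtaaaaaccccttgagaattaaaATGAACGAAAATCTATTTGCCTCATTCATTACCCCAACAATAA
mt-Atp6: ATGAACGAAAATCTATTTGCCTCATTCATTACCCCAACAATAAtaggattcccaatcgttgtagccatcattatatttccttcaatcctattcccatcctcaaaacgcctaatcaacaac
The reading frame of mt-Atp6 thus opens inside that of mt-Atp8. The following tRNAs are printed because heavy and light strand tRNAs are compared below, with the anticodon in capitals. The first 4 are heavy strand genes and the last 4 are light strand genes, each in its own 5′ to 3′ direction.
mt-Tm: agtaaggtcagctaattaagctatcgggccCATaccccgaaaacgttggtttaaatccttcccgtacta
mt-Tw: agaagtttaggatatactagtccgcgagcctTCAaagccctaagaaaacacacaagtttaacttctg
mt-Tg: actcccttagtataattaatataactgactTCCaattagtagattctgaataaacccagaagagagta
mt-Tl2: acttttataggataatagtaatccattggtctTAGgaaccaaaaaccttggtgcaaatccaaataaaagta
mt-Te: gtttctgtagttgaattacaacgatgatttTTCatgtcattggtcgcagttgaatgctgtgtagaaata
mt-Tp: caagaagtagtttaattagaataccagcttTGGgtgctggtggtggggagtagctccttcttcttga
mt-Tn: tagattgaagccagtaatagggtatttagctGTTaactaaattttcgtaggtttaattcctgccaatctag
mt-Ta: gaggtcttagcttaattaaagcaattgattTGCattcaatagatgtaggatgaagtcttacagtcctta
mt-Tm (methionine, chrMT:3845-3913), mt-Tw (tryptophan, chrMT:4950-5016), mt-Tg (glycine, chrMT:9391-9458) and mt-Tl2 (leucine, chrMT:11671-11741) lie on the plus strand of GRCm38. mt-Te (glutamate, chrMT:14071-14139), mt-Tp (proline, chrMT:15356-15422), mt-Tn (asparagine, chrMT:5089-5159) and mt-Ta (alanine, chrMT:5018-5086) lie on its minus strand. The 22 tRNA genes are 59 to 75 bases long.

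The deposited counts summed to between 58790874 and 78291273 per library. Prdx1 itself had 78.7, 111 and 75.4 CPM (deposited counts scaled to a common library total with TMM factors, as for every CPM value here) in knockouts and 644, 570 and 663 CPM in controls, a log2 fold change of -2.82 ± 0.17 (SE, edgeR adjusted p = 4.4e-05). Fold changes are knockout over control on the log2 scale, and a call is an adjusted p under 0.05 from edgeR's quasi-likelihood test over 18931 genes. The tissue also differed in its cell markers. Hepatocyte markers summed to 50429 to 64408 CPM in knockouts and 83208 to 104432 CPM in controls, with 6 of 8 lower. Cholangiocyte markers summed to 1171 to 1356 CPM in knockouts and 104 to 133 CPM in controls (6 of 6 higher), and stellate and fibroblast markers to 1724 to 1923 CPM in knockouts and 526 to 601 CPM in controls (6 of 6 higher). Macrophage markers summed to 2176 to 2407 CPM in knockouts and 939 to 1124 CPM in controls (6 of 6 higher), and lymphocyte markers to 64.2 to 76.3 CPM in knockouts and 39.8 to 41.3 CPM in controls (2 of 3 higher). Endothelial markers, at 305 to 343 CPM in knockouts and 342 to 364 CPM in controls, had 1 of 5 higher and 1 lower, and no marker of these lists was at 0 in either group. In bulk liver, fewer hepatocytes and less mitochondrial RNA per hepatocyte cannot be told apart, and the part of these cell markers in the results below was not tested.

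Mitochondrial RNA made up a slightly smaller part of the library in knockouts. The 37 genes took 6.11%, 5.64% and 5.27% of deposited counts in knockouts, and 6.86%, 6.32% and 6.29% in controls. Every knockout lay below every control, with means of 5.67% ± 0.42 in knockouts and 6.49% ± 0.32 in controls (SD, n = 3 each), but the highest knockout and the lowest control were close. Of the mitochondrial counts, 98.8% ± 0.09 in knockouts and 98.5% ± 0.15 in controls came from the 13 mRNAs. The rRNAs, which are abundant in the organelle but poorly captured in poly(A)-selected libraries such as these, gave 0.885% ± 0.088 in knockouts and 1.20% ± 0.13 in controls. Without the mRNA mt-Atp6, the mRNAs took 5.55% ± 0.41 of deposited counts in knockouts and 6.02% ± 0.31 in controls, and the groups overlapped. As a share of summed FPKM, which corrects for gene length, the 37 genes took 14.9% ± 1.24 in knockouts and 16.5% ± 0.78 in controls, again with overlap. No test was run on these shares.

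Gene by gene, the mitochondrial mRNAs did not move as a block. Of 37 genes, 32 passed the filter on low counts, and the 5 that did not were tRNAs (mt-Tf, mt-Tv, mt-Td, mt-Tk and mt-Ts2). Among the 15 mRNAs and rRNAs, all of which passed, 8 of 13 mRNAs and 2 of 2 rRNAs were called lower in knockouts, where 18.0% of all tested genes were called lower. No mitochondrial gene was called higher by edgeR, where 19.9% of all tested genes were, and none had an unadjusted p under 0.05 in that direction or was called higher by DESeq2. The median log2 fold change was -0.59 over the mRNAs and -1.0 over the rRNAs, beside 0.05 over all tested genes. The scale matters for these values: with library sizes alone in place of TMM factors, the median of all genes moved to 0.41, the mRNA median to -0.22 and the rRNA median to -0.63. On that scale 7 of the 15 mRNAs and rRNAs were called lower, where 6.6% of all tested genes were called lower and 34.1% higher. In limma on log2(FPKM + 0.5) the count was 6, where 6.85% of all tested genes were called lower and 35.2% higher. Directions below are therefore relative to the bulk of genes, and each flip under library sizes or FPKM is given with its gene.

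**Figure D1:**
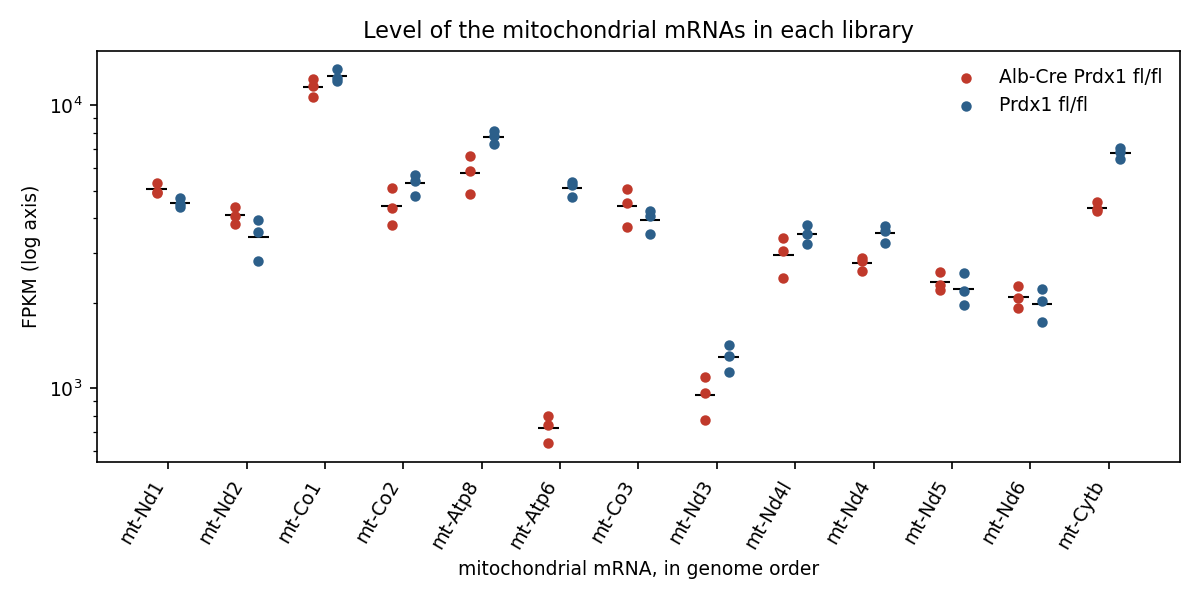
FPKM (log axis) of each mitochondrial mRNA in the 3 knockout libraries (red, left) and the 3 control libraries (blue, right), in genome order, with the group mean as a black line. mt-Atp6 lies at 640 to 799 FPKM in knockouts and 4731 to 5364 FPKM in controls, while its neighbour mt-Atp8 lies at 4843 to 6612 FPKM in knockouts and 7273 to 8098 FPKM in controls.

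The largest difference among the mRNAs was in mt-Atp6, the membrane subunit of ATP synthase through which protons pass. It had 522, 486 and 440 CPM in knockouts, against 4494, 4492 and 3992 CPM in controls. The groups lay far apart, and the knockout mean was 11.2% of the control mean. The log2 fold change was -3.16 ± 0.11 (SE, edgeR adjusted p = 1.11e-05), and its p ranked 4 among 18931 genes. It stayed between -3.22 and -3.09 when each library was left out, and was -2.79 with library sizes alone. In FPKM, mt-Atp6 had 799, 743 and 640 in knockouts and 5364, 5235 and 4731 in controls, so that it made up 1.41% ± 0.047 of all mitochondrial mRNA FPKM in knockouts and 8.24% ± 0.32 in controls. With mt-Atp8, the mRNAs of complex V took 3.26% ± 0.24 of mitochondrial counts in knockouts and 8.52% ± 0.37 in controls.

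The genes that share its RNA did not show a difference of that size. mt-Atp8, the small ATP synthase subunit whose last 43 bases are also the first bases of mt-Atp6, had 1295, 1151 and 998 CPM in knockouts and 2032, 2003 and 1838 CPM in controls (log2 fold change -0.77 ± 0.11, adjusted p = 0.00148 by edgeR), a call lost in limma on log2(FPKM + 0.1), with an adjusted p of 0.0619. mt-Co3 (chrMT:8607-9390, plus strand), a core subunit of complex IV that begins at the last base of mt-Atp6, had 3796, 3391 and 2946 CPM in knockouts and 4086, 4001 and 3408 CPM in controls, which overlapped. Its log2 fold change was -0.18 ± 0.12 (edgeR adjusted p = 0.283), and it turned to 0.19 with library sizes alone and to 0.16 on FPKM. Ratios within a library do not depend on scaling. The ratio of mt-Atp6 to mt-Atp8 in FPKM was 0.121, 0.126 and 0.132 in knockouts and 0.662, 0.672 and 0.651 in controls. The ratio of mt-Co3 to mt-Atp8 went the other way, at 0.763, 0.766 and 0.768 in knockouts and 0.523, 0.520 and 0.482 in controls.

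Counts of mt-Atp6 cannot be read alone, because the nuclear genome holds a near-identical copy of this stretch of mitochondrial DNA. On chromosome 1, 7 annotated pseudogene rows match mitochondrial mRNAs at 99.71% to 100% identity, so reads of either origin cannot be told apart over nearly all of the matching bases. Gm10925 (chr1:24613974-24614651, minus strand, GRCm38) matches mt-Atp6 at 100% over 678 bases. Its neighbours Gm28661, Gm28437 and Gm10222 match mt-Co2 over 681 bases, mt-Co3 over 783 bases and mt-Nd4l over 294 bases at 100%, and Gm28438 matches mt-Nd3 at 99.71% over 345 bases. The sum of 9 nuclear copies, including less similar ones on chromosome 2, was 1.34% ± 0.061 of deposited counts in knockouts and 1.65% ± 0.037 in controls. Within a library, mt-Co2, mt-Co3, mt-Nd3 and mt-Nd4l had nearly the same ratio to their copies, such as 1.49, 1.20 and 1.01 in knockouts and 1.19, 1.08 and 1.02 in controls for mt-Co2. The ratio of mt-Atp6 to Gm10925 stood apart in knockouts, at 0.281, 0.211 and 0.177, against 1.06, 0.981 and 0.930 in controls.

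**Figure D2:**
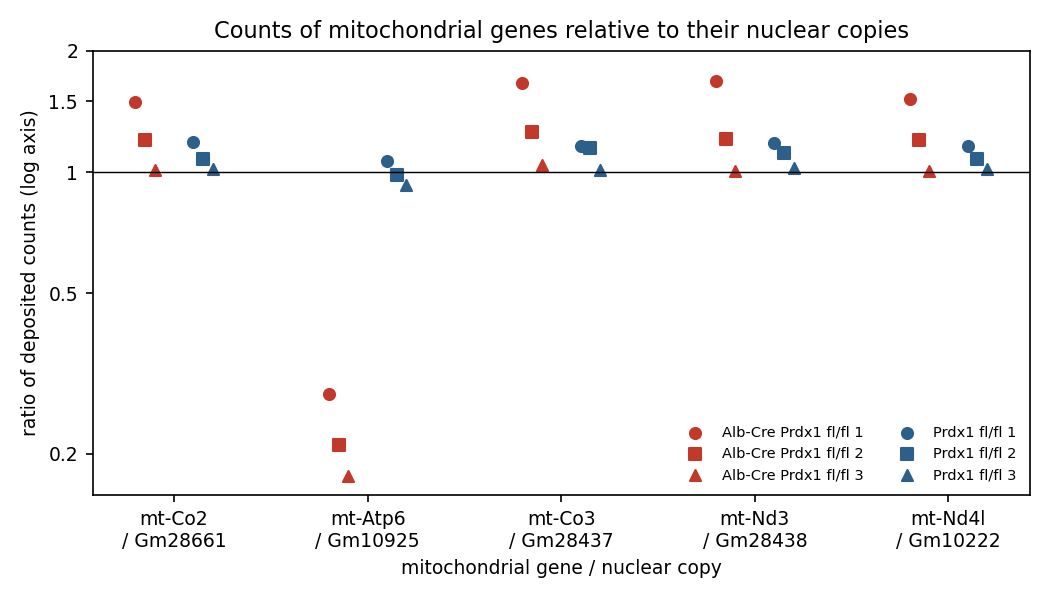
Ratio of deposited counts (log axis) of 5 mitochondrial mRNAs to their copies on chromosome 1, in each knockout library (red, left) and control library (blue, right), with marker shape giving the replicate. For mt-Atp6 the knockouts lie at 0.177 to 0.281 and the controls at 0.930 to 1.06, while the other 4 pairs lie between 1.01 and 1.68 in all libraries.

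The row of the copy was lower in knockouts as well, though reads of either origin cannot be told apart on it. Gm10925 had 1858, 2306 and 2491 CPM in knockouts and 4225, 4580 and 4290 CPM in controls (log2 fold change -0.98 ± 0.12, edgeR adjusted p = 0.00075). Summed with it, mt-Atp6 had 161541, 253104 and 248027 deposited counts in knockouts and 488780, 530740 and 484058 in controls. In a fit with each copy added to its mitochondrial gene, a setting chosen after seeing the data, the log2 fold change of mt-Atp6 was -1.69 (edgeR adjusted p = 5.27e-05). The summed deposited counts of knockouts averaged 44.1% of the control mean and lay outside the control range. The deposited counts of the mt-Atp6 row alone averaged 15.6% of the control mean. mt-Co3 with its copy was then called lower, at -0.28 (edgeR adjusted p = 0.0328). How the deposited counts were divided between identical rows is not given in the sources used here, and its part in the value for mt-Atp6 was not tested.

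mt-Cytb and both rRNAs were called lower under every scaling tried. mt-Cytb (chrMT:14145-15288, plus strand) encodes cytochrome b of complex III, and its one annotated nuclear copy of at least 100 bases, Gm11410, matched at 92.9% and had 0 counts in all libraries. It had 4984, 4725 and 4877 CPM in knockouts and 9936, 9336 and 9734 CPM in controls, a tight pair of groups with a log2 fold change of -0.99 ± 0.08 (edgeR adjusted p = 0.000132). With library sizes alone its log2 fold change was -0.62 and was still called. As a share of mitochondrial mRNA FPKM it held 8.47% ± 0.46 in knockouts and 11.0% ± 0.5 in controls.

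mt-Rnr1 (chrMT:70-1024, plus strand), the RNA of the small ribosomal subunit, had 196, 198 and 171 CPM in knockouts and 370, 375 and 393 CPM in controls. mt-Rnr2 (chrMT:1094-2675, plus strand), the RNA of the large subunit, had 263, 279 and 218 CPM in knockouts and 469, 487 and 565 CPM in controls. The groups of both rRNAs stayed apart, with log2 fold changes of -1.01 ± 0.09 and -1.0 ± 0.12 (edgeR adjusted p = 0.000181 and 0.000684). The ratio of mt-Rnr2 to mt-Rnr1 in FPKM overlapped between genotypes, at 0.808, 0.849 and 0.770 in knockouts and 0.766, 0.784 and 0.869 in controls. By contrast the ratio of mt-Nd1, the first mRNA after the rRNAs, to mt-Rnr2 was 30.7, 26.8 and 36.3 in knockouts and 19.6, 18.4 and 15.1 in controls. Poly(A) selection captures little rRNA, so these values are of the captured part.

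The 7 mRNAs of complex I, the NADH dehydrogenase, split into those called lower and those not. mt-Nd4 (chrMT:10167-11544, plus strand) had 3811, 3742 and 3609 CPM in knockouts and 6349, 6231 and 5552 CPM in controls, a log2 fold change of -0.70 ± 0.09 (edgeR adjusted p = 0.000816). mt-Nd4l, which overlaps the start of mt-Nd4 by 7 bases, had 972, 871 and 734 CPM in knockouts and 1376, 1314 and 1190 CPM in controls (-0.59 ± 0.12, edgeR adjusted p = 0.00645). mt-Nd3 had 366, 323 and 272 CPM in knockouts and 555, 624 and 494 CPM in controls (-0.80 ± 0.13, edgeR adjusted p = 0.00284). In all of these the genotypes did not overlap, but the call on mt-Nd4l was lost with library sizes alone (log2 fold change -0.22, edgeR adjusted p = 0.219), and that on mt-Nd3 in limma on log2(FPKM + 0.5), with an adjusted p of 0.0539. In limma on log2(FPKM + 0.1) the call on mt-Nd4 was lost as well (adjusted p = 0.0517). The rows of the copies of mt-Nd3, mt-Nd4l and mt-Nd4 on chromosome 1 were also called lower, at -1.01, -0.77 and -0.67. The copy of mt-Nd4, Gm28439, matches at 100% over 876 bases. mt-Nd1, mt-Nd2, mt-Nd5 and mt-Nd6 have no annotated copy of at least 100 bases there. How reads were divided between these rows is not given, and its part in the split was not tested.

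The other 4 complex I mRNAs did not pass the test. mt-Nd1 (chrMT:2751-3707) averaged 4731 ± 193 CPM in knockouts and 5381 ± 190 CPM in controls (SD, n = 3 each), a log2 fold change of -0.19 ± 0.08 (edgeR adjusted p = 0.111). mt-Nd2 (chrMT:3914-4951) averaged 4141 ± 293 CPM in knockouts and 4434 ± 691 CPM in controls, at -0.10 ± 0.13 (edgeR adjusted p = 0.596). mt-Nd5 and mt-Nd6 overlap by 14 bases on opposite strands, and had log2 fold changes of -0.26 ± 0.11 and -0.27 ± 0.12 (edgeR adjusted p = 0.105 and 0.111). Without control replicate 2, mt-Nd6 was called lower at -0.36 (edgeR adjusted p = 0.0443). The sign of all 4 turned on the other scales, to 0.18, 0.27, 0.10 and 0.10 with library sizes alone and to 0.16, 0.26, 0.09 and 0.08 on FPKM. Within the mitochondrial pool, where scaling plays no part, complex I mRNAs took 37.9%, 37.2% and 39.5% of mitochondrial counts in knockouts and 33.1%, 31.5% and 33.4% in controls. That share was higher in every knockout than in every control, also with mt-Atp6 left out of the total, at 38.6% ± 1.2 in knockouts and 34.7% ± 0.95 in controls (SD, n = 3 each). Shares of a fixed total move against each other. On the same total mt-Cytb took 9.85% ± 0.36 in knockouts and 13.9% ± 0.48 in controls. Complex IV mRNAs took 48.0% ± 1.2 and 47.0% ± 1.3, which overlapped. A higher complex I share is therefore not by itself a higher level.

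mt-Nd6 is the single mRNA of the light strand, and its level could be set against mt-Nd5, its neighbour on the heavy strand. mt-Nd6 had 2310, 1929 and 2080 FPKM in knockouts and 2245, 1711 and 2031 FPKM in controls. mt-Nd5 had 2587, 2232 and 2321 FPKM in knockouts and 2559, 1975 and 2201 FPKM in controls. The ratio of mt-Nd6 to mt-Nd5 was 0.893, 0.864 and 0.896 in knockouts and 0.877, 0.866 and 0.923 in controls, so the genotypes overlapped. The libraries kept strand by dUTP marking, per the labels' protocols, but whether counting used it is not given in the sources used here, so reads of the shared bases cannot be told apart.

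Among the mRNAs of complex IV, cytochrome c oxidase, mt-Co1 and mt-Co2 were called lower and mt-Co3, described above, was not. mt-Co1 (chrMT:5328-6872, plus strand), the catalytic subunit, was the mRNA with the highest FPKM in every library. It had 12342, 11694 and 10695 FPKM in knockouts and 13385, 12457 and 12140 FPKM in controls, which overlapped. In TMM-scaled CPM it had 18302, 17337 and 16695 in knockouts and 25440, 24250 and 23239 in controls, without overlap, and its log2 fold change was -0.48 ± 0.09 (edgeR adjusted p = 0.00444). mt-Co2 (chrMT:7013-7696, plus strand), which takes electrons from cytochrome c, had 3347, 2853 and 2614 CPM in knockouts and 4783, 4671 and 4054 CPM in controls (-0.62 ± 0.12, edgeR adjusted p = 0.00524). Both calls depended on the scale: with library sizes alone the log2 fold changes were -0.11 and -0.24 (edgeR adjusted p = 0.372 and 0.157). mt-Co1 made up 22.5% ± 0.52 of mitochondrial mRNA FPKM in knockouts and 20.4% ± 0.038 in controls. With mt-Atp6 left out of the total its share was 22.8% ± 0.52 in knockouts and 22.2% ± 0.10 in controls, and the groups overlapped.

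**Figure D3:**
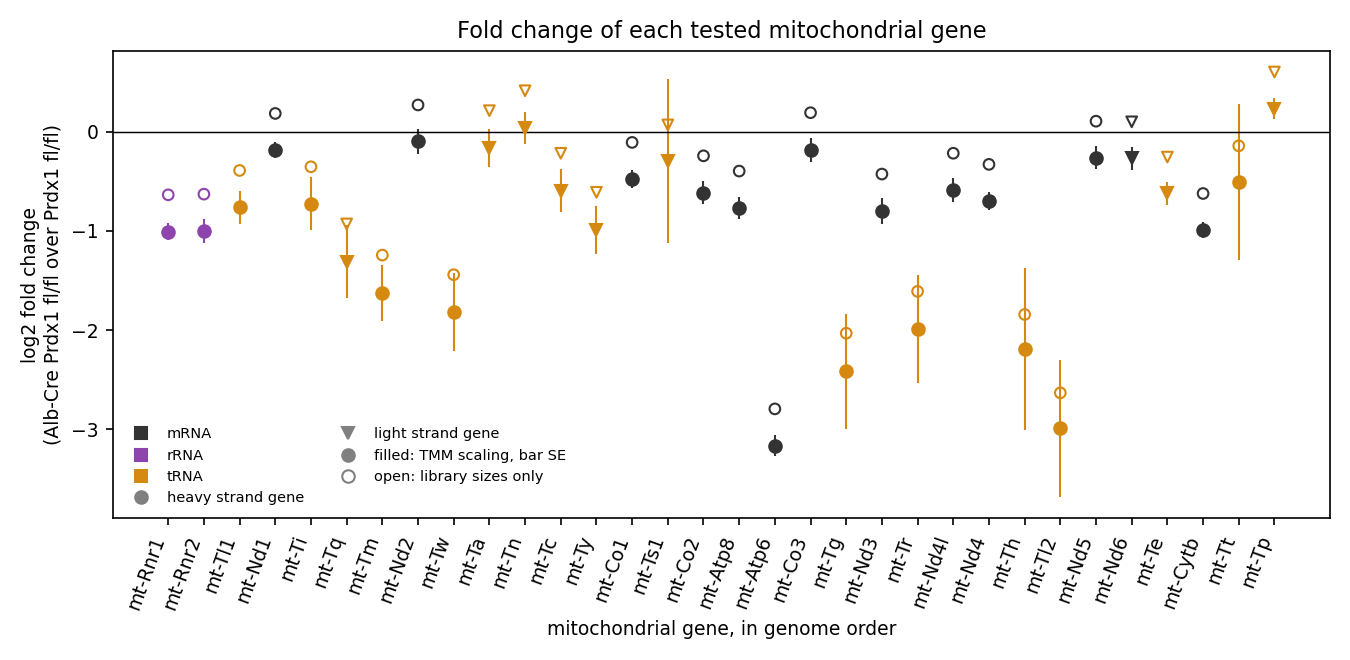
Log2 fold change (knockout over control) of the 32 tested mitochondrial genes in genome order, filled symbols from edgeR with TMM factors and SE as bars, open symbols with library sizes alone, circles for heavy strand and triangles for light strand genes. mt-Atp6 at -3.16 stands below its neighbours mt-Atp8 at -0.77 and mt-Co3 at -0.18, and the open symbols lie above the filled ones throughout.

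The 10 mRNAs whose groups did not overlap in TMM-scaled CPM were all lower in knockouts, where 24.2% of all tested genes were lower and 28.8% higher without overlap. In FPKM, 5 mRNAs were lower without overlap (mt-Atp8, mt-Atp6, mt-Nd3, mt-Nd4 and mt-Cytb) and mt-Nd1 was higher without overlap. The background on that scale was 10.3% of tested genes lower and 45.0% higher. The order of levels per length also changed at its lower end. In controls the lowest mRNA by mean FPKM was mt-Nd3, at 1289 ± 140, whereas in knockouts it was mt-Atp6, at 727 ± 81, below mt-Nd3 at 945 ± 162. The knockout ranges of these genes, 640 to 799 and 773 to 1095 FPKM, overlapped slightly. This order holds for the mitochondrial rows alone. Gm10925, the copy of mt-Atp6, averaged 3345 FPKM in knockouts and 5178 FPKM in controls. Gm28438, the copy of mt-Nd3, averaged 746 FPKM in knockouts and 1177 FPKM in controls. How reads were divided between such rows is not given, and its part in the changed order was not tested.

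Rows for tRNAs held few counts. A mature tRNA is short and ends in CCA instead of a poly(A) tail, so on these rows free tRNA cannot be told apart from longer RNAs that include it. The 22 tRNA rows summed to 10149, 12859 and 11764 deposited counts in knockouts and 10871, 12925 and 11869 in controls, which overlapped. Grouped by the strand of the gene, they differed. Whether counting used strand is not given in the sources used here, so reads of the opposite strand cannot be told apart on these rows. The 14 heavy strand tRNAs summed to 1743, 2439 and 1644 counts in knockouts and 2637, 4058 and 3075 counts in controls. The 8 light strand tRNAs summed to 8406, 10420 and 10120 counts in knockouts and 8234, 8867 and 8794 counts in controls. Within the mitochondrial pool, heavy strand tRNAs were lower in every knockout, and light strand tRNAs higher, at 0.240% ± 0.0078 of mitochondrial counts in knockouts and 0.203% ± 0.012 in controls. The ratio of light to heavy strand tRNA counts was 4.82, 4.27 and 6.16 in knockouts and 3.12, 2.19 and 2.86 in controls, and does not depend on scaling. Without mt-Tp, which had the next most counts after mt-Te, the other 7 light strand tRNAs took 0.145%, 0.155% and 0.160% of mitochondrial counts in knockouts and 0.139%, 0.156% and 0.165% in controls, so the genotypes overlapped and the higher light strand share was no longer seen. The ratio without mt-Tp was 2.99, 2.80 and 3.96 in knockouts and 2.29, 1.64 and 2.23 in controls, still without overlap. mt-Te, mt-Tp and the heavy strand mt-Tl1 together held 74.7%, 68.1% and 77.8% of tRNA counts in knockouts and 69.7%, 58.0% and 69.5% in controls.

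**Figure D4:**
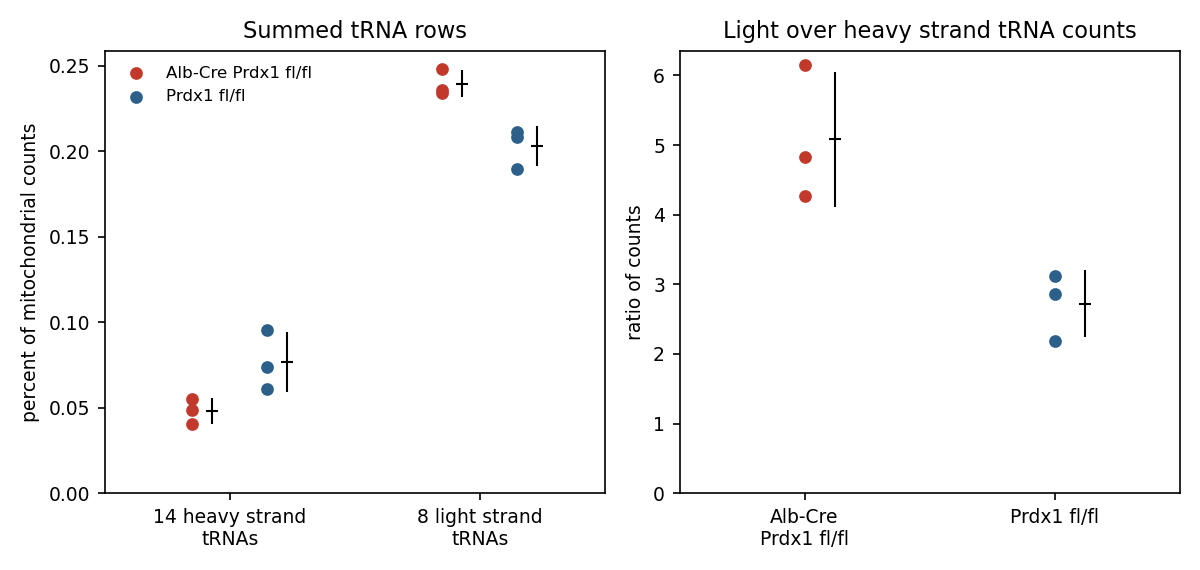
Left, summed heavy strand and light strand tRNA rows as a percent of mitochondrial counts, with knockouts in red on the left and controls in blue on the right of each pair. Right, the ratio of light to heavy strand tRNA counts, 4.27 to 6.16 in knockouts and 2.19 to 3.12 in controls. Points are libraries, and bars give mean ± SD (n = 3 each). Strand is that of the gene, and whether counting used strand is not given.

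Of the heavy strand tRNAs, 9 of 14 passed the filter and 6 were called lower, where 18.0% of all tested genes were called lower. mt-Tm had 6.82, 7.89 and 4.66 CPM in knockouts and 16.6, 27.7 and 15.4 CPM in controls (log2 fold change -1.62 ± 0.28, edgeR adjusted p = 0.00341). mt-Tw had 1.53, 2.15 and 1.48 CPM in knockouts and 4.71, 9.76 and 3.76 CPM in controls (-1.82 ± 0.39, edgeR adjusted p = 0.00843). mt-Tg, between mt-Co3 and mt-Nd3, had 0.560, 0.673 and 0.343 CPM in knockouts and 1.48, 5.25 and 1.69 CPM in controls (-2.41 ± 0.58, edgeR adjusted p = 0.0138). Without control replicate 2 the log2 fold change of mt-Tg was -1.59 (edgeR adjusted p = 0.0400). In all of these the genotypes did not overlap, and control replicate 2 was the highest library. mt-Tl1 (leucine), next to mt-Rnr2, was called at -0.76 ± 0.17 (edgeR adjusted p = 0.00935), a call lost with library sizes alone (adjusted p = 0.123).

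mt-Tl2 and mt-Tr (arginine) were also called lower, at -2.99 ± 0.69 and -1.99 ± 0.54 (edgeR adjusted p = 0.0118 and 0.0225), but rest on few counts. mt-Tl2 had 5, 7 and 11 deposited counts in knockouts and 21, 46 and 65 in controls, and without control replicate 3 its edgeR adjusted p was 0.0501. mt-Tr had 25, 28 and 15 counts in knockouts and 40, 89 and 68 in controls. Its edgeR adjusted p was 0.0613 without knockout replicate 2, 0.0682 without knockout replicate 3, 0.0778 without control replicate 2, 0.0522 without control replicate 3, and 0.0509 with library sizes alone. mt-Ti (isoleucine), mt-Th (histidine) and mt-Tt (threonine) did not pass, at -0.73 ± 0.26, -2.19 ± 0.81 and -0.51 ± 0.79. The 5 heavy strand tRNAs that failed the filter had at most 16 deposited counts in any library.

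Of the 8 light strand tRNAs, all passed the filter and 3 were called lower, against 18.0% of all tested genes. mt-Te, which lies between mt-Nd6 and mt-Cytb, held the most tRNA counts, with 50.4, 43.8 and 55.3 CPM in knockouts and 76.4, 70.7 and 82.9 CPM in controls (-0.62 ± 0.11, edgeR adjusted p = 0.00414). This call was lost with library sizes alone (log2 fold change -0.26, adjusted p = 0.0972). mt-Ty (tyrosine) was called at -0.99 ± 0.24 (edgeR adjusted p = 0.0148), and its adjusted p with library sizes alone was 0.0863. mt-Tq (glutamine) was called at -1.31 ± 0.37 (edgeR adjusted p = 0.0251), but its adjusted p was 0.0817 without knockout replicate 1, 0.0677 without knockout replicate 3, 0.0804 without control replicate 2 and 0.0808 with library sizes alone.

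mt-Tp, the last gene in genome order and next to the control region, had the highest fold change of the 32 tested mitochondrial genes. It had 3191, 3588 and 3613 deposited counts in knockouts and 2187, 2221 and 1939 in controls. In CPM it had 47.0, 39.6 and 42.7 in knockouts and 39.0, 38.0 and 33.2 in controls, a log2 fold change of 0.23 ± 0.11 that did not pass (edgeR adjusted p = 0.133). With library sizes alone it was 0.60 and was called higher (edgeR adjusted p = 0.00395), as it was in limma on log2(FPKM + 0.5), at 0.58. mt-Tn was at 0.04 ± 0.16, and its sign turned without knockout replicate 2 or control replicate 1. mt-Tc (cysteine) was at -0.59 ± 0.21, mt-Ta at -0.16 ± 0.19 and mt-Ts1 (serine) at -0.30 ± 0.83, none of them called, and the signs of mt-Ta and mt-Ts1 turned with library sizes alone, to 0.21 and 0.07.

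Genes in the nucleus that serve the same organelle were set beside the mitochondrial mRNAs by lists. In the list for transcription and replication of mitochondrial DNA, 5 of 17 tested genes were called lower and 1 higher, with a median log2 fold change of -0.28. Of all tested genes, 18.0% were called lower and 19.9% higher, and the TMM-scaled counts of each list below are to be read beside these shares. Counts with library sizes alone are to be read beside 6.6% lower and 34.1% higher. Tfam, which packages mitochondrial DNA and starts its transcription, averaged 33.7 ± 2.5 CPM in knockouts and 49.0 ± 2.0 CPM in controls (-0.54 ± 0.09, edgeR adjusted p = 0.00317). The helicase Twnk (-0.60), the nuclease Mgme1 (-0.79), the rRNA methyltransferase Tfb1m (-0.87) and Mterf3 (-0.45) were also called lower, and the primase Primpol was higher, at 1.13 ± 0.18 (edgeR adjusted p = 0.00249). The call on Mterf3 was lost without knockout replicate 1 or 2 or control replicate 2. The RNA polymerase Polrmt had a log2 fold change of -0.28 (edgeR adjusted p = 0.0673), the initiation factor Tfb2m -0.34 (edgeR adjusted p = 0.094) and the elongation factor Tefm -0.39 (edgeR adjusted p = 0.255), and none of these passed. With library sizes alone none of the 5 lower calls in this list remained, and Polrmt and Tfb2m turned to 0.09 and 0.04.

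Among genes of mitochondrial RNA processing, stability and modification, 20 of 39 tested genes were called lower, with a median of -0.47. Lrpprc, which holds mitochondrial mRNAs stable, averaged 95.2 ± 3.6 CPM in knockouts and 144 ± 3.4 CPM in controls (-0.60 ± 0.08, edgeR adjusted p = 0.00088), while its partner Slirp was at -0.07 (edgeR adjusted p = 0.828). Elac2, which cuts tRNAs at the 3′ end, was called lower at -0.65. Of the subunits of RNase P, Trmt10c was called lower at -0.63 and Hsd17b10 was not (-0.22, edgeR adjusted p = 0.214). Prorp, also a subunit of RNase P and named here after its value was seen, was called lower at -0.97 (edgeR adjusted p = 0.00692). The RNA granule protein Grsf1 was called at -0.72, Fastkd1 at -0.87, the exonuclease Rexo2 at -0.62, the nuclease Endog at -0.65 and Tbrg4 at -0.76. The helicase Supv3l1 was called at -0.56, a call lost without knockout replicate 3 or control replicate 1. Its partner in RNA decay, Pnpt1, at -0.30, and the poly(A) polymerase Mtpap, at -0.47, did not pass (edgeR adjusted p = 0.0733 and 0.0713). With library sizes alone 5 genes of the list were called lower and 4 higher, beside 6.6% and 34.1% of all tested genes. Hsd17b10, Slirp and Pnpt1 turned to 0.14, 0.30 and 0.07 on that scale.

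**Figure D5:**
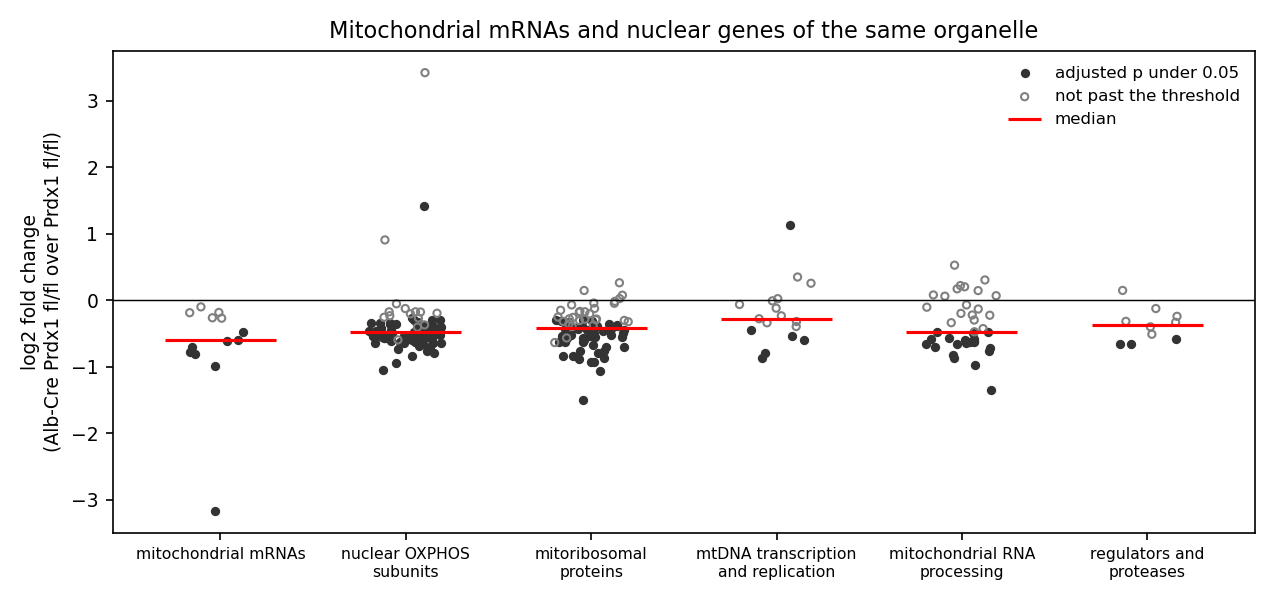
Log2 fold change (knockout over control, edgeR with TMM factors) of the 13 mitochondrial mRNAs and of the tested members of 5 nuclear lists, one point per gene, filled where the adjusted p was under 0.05, with the list median as a red line. The medians lie between -0.59 and -0.28, and mt-Atp6 lies below every nuclear gene shown.

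Most nuclear partners of the mitochondrial subunits were called lower. Of 82 tested nuclear subunits of the respiratory chain, 66 were called lower and 1 higher (Cox6b2, a subunit best known from testis, chosen here after its value was seen, at 1.42), with a median of -0.48. These rows include Cox5b-ps, named as a pseudogene, which was called lower at -0.46 and is counted with complex IV below. Complex III had 8 of 9 lower with a median of -0.56. Its subunits Uqcrc2, Uqcrfs1, Cyc1 and Uqcrc1 were at -0.94, -0.83, -0.79 and -0.68, beside -0.99 for mt-Cytb. They were named for their small p-values, and the other tested complex III subunits ran from -0.56 (Uqcr10) to -0.27 (Uqcrh). Complex V had 16 of 17 nuclear subunits lower with a median of -0.46, and the lowest of them was at -0.66, beside -3.16 for mt-Atp6 and -0.77 for mt-Atp8. For complex I the count was 28 of 36 with a median of -0.47, for complex IV 10 of 16 with -0.46, and for complex II, which has no mitochondrially encoded subunit, 4 of 4 with -0.52. These medians with library sizes alone were -0.19 for complex III, -0.091 for complex V, -0.10 for complex I, -0.093 for complex IV and -0.15 for complex II. Sdha of complex II and Ndufb9 of complex I were called at -0.60 and -0.62.

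Mitochondrial ribosomal proteins, which assemble on the 2 rRNAs, had 49 of 78 called lower with a median of -0.42, beside -1.0 for the rRNAs. Mrpl17 had the lowest value, at -1.49 ± 0.14 (edgeR adjusted p = 0.000247), and Mrpl12, Mrpl15, Mrpl58, Mrps27 and Mrps7 were at -0.92, -0.93, -0.88, -0.80 and -0.77. Among regulators and proteases 3 of 10 were called lower, against 18.0% of all tested genes: the protease subunit Clpp (-0.65), Pprc1 (-0.58) and Ppargc1b (-0.66). The calls on Pprc1 and Ppargc1b were each lost when any of 5 single libraries was left out. Ppargc1a, Gabpa and Yy1, at -0.51, -0.40 and -0.24, did not pass. With library sizes alone, 13 respiratory chain genes and 13 ribosomal protein genes were called lower, beside 6.6% of all tested genes. In the same 2 lists 3 and 2 genes were called higher, beside 34.1% of all tested genes. No regulator was called lower on that scale, and Yy1 turned to 0.13. The summed hepatocyte markers were also lower in knockouts, as was the median of each of these lists with TMM factors. The part of the markers in these values was not tested.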

How the data were processed

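Liver RNA of 3 Alb-Cre Prdx1fl/fl and 3 Prdx1fl/fl mice was sequenced after poly(A) selection, per the labels' protocols, with dUTP strand marking and molecular identifiers. Per the submitters' processing notes, StringTie 1.3.4d, edgeR and DESeq2 were used along with UMI-tools, cutadapt 1.9 and HISAT2 2.0.4, without roles, on the build mm9, but all 37 mitochondrial rows have the positions of GENCODE M21 (GRCm38). The authors deposited an estimated count and an FPKM value per gene and library. They are treated as estimated because in control replicate 1, 854 genes had a count of 4 against 280 with 3 and 167 with 5, so a read pair is worth about 4 counts and no counting interval is given. Multi-mapped reads were handled in a way not given in the sources used here.

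Estimated counts were tested in R 4.3.3 with edgeR 4.0.16 (filterByExpr with minimum count 10 and total 15, TMM factors, genotype as the only term, glmQLFit and glmQLFTest, two-sided). Benjamini-Hochberg adjustment ran over 18931 genes with a threshold of 0.05, and SEs come from the F statistic. DESeq2 1.42.0, RLE factors, library sizes alone, TMM factors from nuclear rows, no filter, limma 3.58.1 on log2(FPKM + 0.5, 1 or 0.1) of the authors' values, a replicate block and leaving out each library were alternatives. Adding nuclear copies and dividing counts by 4 were added after seeing the data.

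All mitochondrial mRNAs and rRNAs, every tRNA past the filter, the 6 smallest p-values of each nuclear list and 12 fixed genes of mitochondrial transcription and RNA processing were named, with Prdx1 as a check of the labels. The genes and lists were chosen with earlier results of these data known. Nuclear copies were found by aligning the mitochondrial genes to all other transcripts of GENCODE M21 with blastn 2.17.0. Of a list of 11 candidates 9 were in the table with an alignment of at least 100 bases. The columns named wt were taken as Prdx1fl/fl, the only other genotype. The labels give no litter or batch, and the p-values set the genotype difference against the spread between these samples within a genotype.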

Additional observations from a re-analysis of the deposited data

How the results depend on the processing

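No call on a mitochondrial gene changed with RLE factors, without the low-count filter or with factors from nuclear rows, and the count of lower calls stayed between 17 and 19 (of 19) when each library was left out. With counts divided by 4, 28 of the 32 tested genes still passed the filter (mt-Ts1, mt-Th, mt-Tl2 and mt-Tt did not) and 18 were called lower. Scaling mattered most. With library sizes alone 11 mitochondrial genes were called lower and 1 higher, and limma on log2(FPKM + 0.5) and on log2(FPKM + 0.1) called 12 and 9 lower, with 1 higher at all 3 pseudocounts. For mRNAs and rRNAs, limma called 6 lower at a pseudocount of 0.5 and 4 at 0.1, against 10. Over all genes, library sizes alone gave 6459 higher and 1249 lower, and limma at 0.5, 1 and 0.1 gave 6656, 6506 and 6504 higher and 1296, 1356 and 1091 lower, against 3767 and 3415.

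The median of mRNAs was -0.22 with library sizes alone and -0.25 in limma, that of rRNAs -0.63 and -0.66, and that of tested heavy strand genes -0.40 and -0.43, against -0.77. For tested light strand genes, at -0.30, it was 0.067 with library sizes alone and -0.020, -0.0099 and -0.038 in limma at 0.5, 1 and 0.1, and -0.63 to -0.26 over the left-out libraries. The mitochondrial share was 14.9% in knockouts and 16.5% in controls as a share of summed FPKM.

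Signs turned positive in these genes with library sizes alone and in limma (all pseudocounts): mt-Nd1 (0.18 and 0.16), mt-Nd2 (0.27 and 0.26), mt-Ta (0.21 and 0.18), mt-Co3 (0.19 and 0.16), mt-Nd5 (0.10 and 0.090), mt-Nd6 (0.098 and 0.083), Polrmt (0.090, then 0.066, 0.060 and 0.071 at 0.5, 1 and 0.1), Tfb2m (0.036, then 0.0065, 0.0066 and 0.0063), Hsd17b10 (0.14, then 0.12, 0.11 and 0.12), Slirp (0.30, then 0.23, 0.21 and 0.25), Pnpt1 (0.073, then 0.052, 0.049 and 0.055) and Yy1 (0.13, then 0.11, 0.10 and 0.11). mt-Ts1 turned to 0.067 with library sizes alone and Tefm to 0.0029 in limma at 0.1. Over left-out libraries mt-Nd2 ran from -0.22 to 0.0049, mt-Tn from -0.10 to 0.15, mt-Ts1 from -0.63 to 0.070 and Slirp from -0.17 to 0.12.

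Lower calls in the nuclear lists with library sizes alone and in limma at 0.5, 1 and 0.1 were 0, 0, 0 and 0 for transcription and replication, 5, 6, 7 and 4 for RNA processing, 0, 0, 1 and 0 for regulators, 13, 14, 16 and 6 for respiratory chain subunits and 13, 13, 14 and 7 for ribosomal proteins. Higher calls were 4 throughout for RNA processing, 1 for regulators (library sizes alone), 3, 3, 4 and 3 for respiratory chain subunits and 2, 2, 2 and 1 for ribosomal proteins. The shares of all tested genes were 6.6% lower and 34.1% higher with library sizes alone. In limma at 0.5 they were 6.85% and 35.2%. Regulators had 1 lower call without the filter and 1 to 3 over left-out libraries, respiratory chain subunits 0 to 2 higher and ribosomal proteins 32 to 44 lower. The lower factors of controls account for the shift by construction, and which scale is closer to RNA per cell was not tested.

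Samples with the same replicate number did not deviate together (correlations 0.013, 0.075 and 0.050). With the replicate block, 20 mitochondrial genes and 5 regulators were called lower, with mt-Nd5 and mt-Nd6 gained (adjusted p = 0.0298 and 0.0289) and mt-Tr lost (0.0658). DESeq2 called 23 mitochondrial genes lower, with mt-Nd1, mt-Ti, mt-Tc and mt-Th added.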

Other observations

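Outside the 9 copies summed above, 8 other annotated nuclear copies matched mitochondrial mRNAs over at least 100 bases, at 90.7% to 96.7% identity. Their counts were far lower than those of the matching mitochondrial genes. Gm13339, which matches mt-Nd2 over 510 bases at 96.7%, had 200, 278 and 406 deposited counts in knockouts and 161, 175 and 201 in controls. Gm11407, which matches mt-Nd5 over 1058 bases at 92.3%, had 45, 40 and 52 counts in knockouts and 18, 55 and 68 in controls.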
